A study of Mus musculus with 9 samples.

Results

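The genes described here are 8 inhibitors that act on the ERK pathway and that the pathway itself switches on: the dual-specificity phosphatase genes Dusp1, Dusp2, Dusp4, Dusp5 and Dusp6, the Sprouty genes Spry1 and Spry2, and the Sprouty-related gene Spred1. They were chosen by symbol as 8 of the 53465 genes in the count table, and each symbol was on 1 row. RNA-Seq was performed on bone marrow-derived macrophages (BMDMs) of male wild-type C57BL/6 mice (C57bl6/J in the methods), in 9 libraries, 3 for each of 3 groups. BMDMs were grown with 10% FBS and 50 ng/ml CSF1, the growth factor on which macrophages depend, and were left untreated (UNX) or moved to medium conditioned by fibroblasts of the calf pulmonary artery adventitia. CO-CM came from control calves and PH-CM from calves with pulmonary hypertension induced by hypoxia. Both were supplemented with 10% FBS, and each was a pool of several fibroblast populations, so that the libraries repeat the macrophage culture and not the calf. Treatment lasted 24 h by the labels' treatment notes and 16 h by their growth notes, and the methods state a time between these. The methods name no CSF1 added to the conditioned media. The calf fibroblasts were cultured with 10% bovine calf serum, and whether it remained in the conditioned media is not stated. So in each comparison with UNX a loss of CSF1, added serum, spent medium and fibroblast products cannot be told apart. The comparison of PH-CM with CO-CM sets conditioned medium beside conditioned medium. Transcripts were measured, and the phosphorylation of ERK was not analysed here.

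CSF1 binds its receptor Csf1r on macrophages, and the receptor signals through RAS, RAF and MEK to the ERK kinases. Active ERK raises the transcription of its own inhibitors, which is why their transcripts are used as readouts of the pathway. DUSP6 removes phosphate from ERK in the cytoplasm, DUSP2, DUSP4 and DUSP5 act in the nucleus, and DUSP1 is a nuclear phosphatase that also acts on JNK and p38. SPRY1, SPRY2 and SPRED1 act further up, between the receptor and RAF. Several of these genes also respond to other signals, Dusp1 among them, which is an immediate early gene of stress and cyclic AMP.

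Promoter sequence is shown for Dusp1 and Dusp5, which rose under PH-CM, and for Dusp6, which had the largest fall of the 8 genes. Each line holds 200 bases of RefSeq sequence (GRCm38.p6), which end 50 bases before the RefSeq start, from chr17:26508523-26508722 (minus strand), chr19:53528895-53529094 (plus strand) and chr10:99262981-99263180 (plus strand). Capitals mark a match to the short cyclic AMP response element TGACG, on either strand, or to the full element TGACGTCA, which holds the short one on both strands.
Dusp1: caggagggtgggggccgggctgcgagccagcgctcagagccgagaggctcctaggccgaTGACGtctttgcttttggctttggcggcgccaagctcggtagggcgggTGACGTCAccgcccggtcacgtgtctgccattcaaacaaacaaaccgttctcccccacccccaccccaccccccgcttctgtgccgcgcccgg
Dusp5: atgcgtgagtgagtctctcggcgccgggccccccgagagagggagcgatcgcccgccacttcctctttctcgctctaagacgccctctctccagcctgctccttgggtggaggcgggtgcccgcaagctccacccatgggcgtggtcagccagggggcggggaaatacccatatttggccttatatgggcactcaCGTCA
Dusp6: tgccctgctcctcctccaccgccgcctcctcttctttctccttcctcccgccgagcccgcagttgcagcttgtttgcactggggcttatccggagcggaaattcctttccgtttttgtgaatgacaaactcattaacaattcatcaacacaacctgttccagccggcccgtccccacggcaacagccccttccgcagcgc
A RefSeq promoter was found for 7 of the 8 genes, all but Dusp4. In the 250 bases before the start, the full element occurred in Dusp1, at position -143 from the start, and in 1.55% of all 32851 promoters searched. The short element occurred in Dusp1 at positions -191, -143 and -140 and in Dusp5 at position -55, and in 17.8% of all promoters. None of the 7 promoters held the AP-1 letters TGACTCA or TGAGTCA (4.46% of all promoters), the ETS letters CCGGAA (12.0%) or the TATA letters TATAAA (12.4%), searched on both strands. Only these exact letters were searched, and other forms of these sites and other elements were not. The 7 windows were rich in CpG, with 16 to 31 CpG in each and a GC content of 56.4% to 70.8%, beside medians of 6 and 52.4% over all promoters. These matches are letters in a window, and binding was not measured.

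The libraries held 62017933 to 84314201 counted reads. Of the 53465 genes, 11950 passed the filter of more than 1 CPM, the read count scaled to the total of its library, in at least 3 libraries. The CPM values given below were also scaled with TMM factors, which correct for the composition of the libraries. A gene was called when edgeR's quasi-likelihood test gave an adjusted p (FDR) of at most 0.05 with a fold change of at least 1.2. The 8 macrophage markers checked all passed the filter, with a summed level of 11818 to 12613 CPM in UNX, 19014 to 19970 in CO-CM and 21462 to 23275 in PH-CM. Of the 8 fibroblast markers 6 passed, with summed levels of 197 to 249, 267 to 318 and 249 to 335 CPM, led by Col1a1 and Col1a2, and none was at 0 throughout a group. No neutrophil, dendritic cell, T cell or B cell marker passed, and their summed levels stayed at or below 1.67, 0.805 and 0.150 CPM for neutrophil, dendritic, and T and B cell lists, with Ly6g and Cd3g at 0 in every library. Whether a change in the makeup of the cultures took part in the results below was not tested, and in bulk RNA fewer cells that express a gene and less RNA per cell cannot be told apart. With 3 libraries against 3 an exact two-sided permutation test cannot go below p = 0.1, so every call rests on the edgeR fit over all genes.

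The 8 genes did not move as 1 block. Dusp6, Dusp4, Spry2 and Spred1 fell under both conditioned media, Dusp5 fell under CO-CM and rose under PH-CM, Dusp1 rose under PH-CM alone of the 2 media, and Dusp2 rose under CO-CM and fell under PH-CM. Spry1 was too low for the filter. So 4 of the 7 tested genes were called lower under both media, as were 24.2% of all tested genes, and 2 of the 7 were called in opposite directions under the 2 media, as were 1.30% of all tested genes. Of these, Dusp2 loses a call against UNX when any of several single libraries is left out, as given with its values, and then 1 of the 7, Dusp5, remains. Both comparisons with UNX share the 3 UNX libraries.

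**Figure D1:**
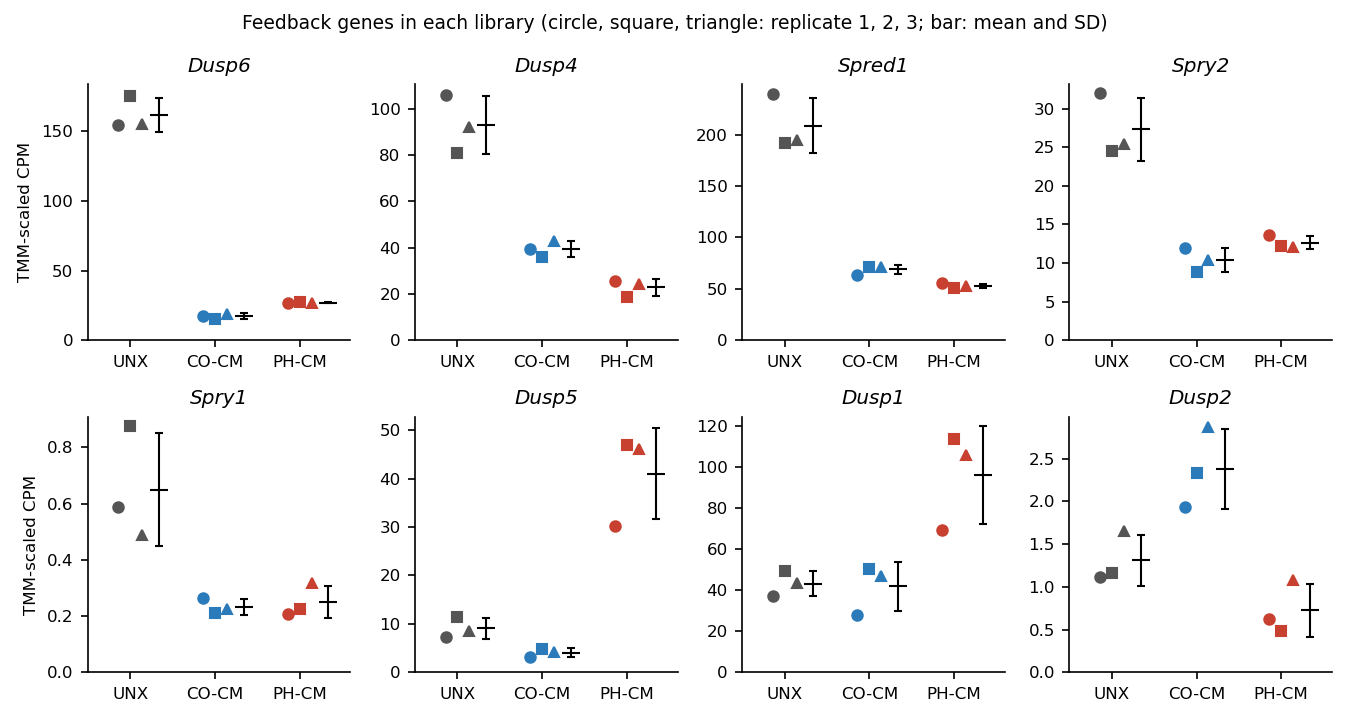
Level of each feedback gene, in TMM-scaled CPM on linear axes from 0, with 1 symbol per library and the mean and SD (n = 3) as a bar. Dusp6, Dusp4, Spred1 and Spry2 sit highest in UNX, Dusp5 and Dusp1 highest in PH-CM, and Dusp2 highest in CO-CM.

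In UNX the order of levels per length of transcript, as deposited RPKM, was Dusp6 at 53.1 ± 3.65 (SD, n = 3), Dusp4 at 34.9 ± 5.20, Spred1 at 31.7 ± 4.51, Dusp1 at 16.5 ± 2.18, Spry2 at 13.5 ± 2.20, Dusp5 at 3.77 ± 0.862, Dusp2 at 0.672 ± 0.147 and Spry1 at 0.230 ± 0.0699. The neighbours Dusp4 and Spred1 lay within the spread of each other, and so did Dusp1 and Spry2. In PH-CM the order was different. Dusp1 led at 35.2 ± 8.25 RPKM, followed by Dusp5 at 16.4 ± 3.53, while Dusp6 had 8.43 ± 0.108, Dusp4 8.21 ± 1.45 and Spred1 7.69 ± 0.445. Dusp4 lay within the spread of both its neighbours, and every Dusp6 library was above every Spred1 library. In CO-CM Dusp1 at 15.2 ± 4.13 RPKM and Dusp4 at 14.1 ± 1.33 lay within the spread of each other, ahead of Spred1 at 9.93 ± 0.487, Dusp6 at 5.39 ± 0.669 and Spry2 at 4.88 ± 0.842. Of the 8, the highest in untreated cells was thus the cytoplasmic ERK phosphatase, and the highest under PH-CM was the phosphatase of broader range.

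**Figure D2:**
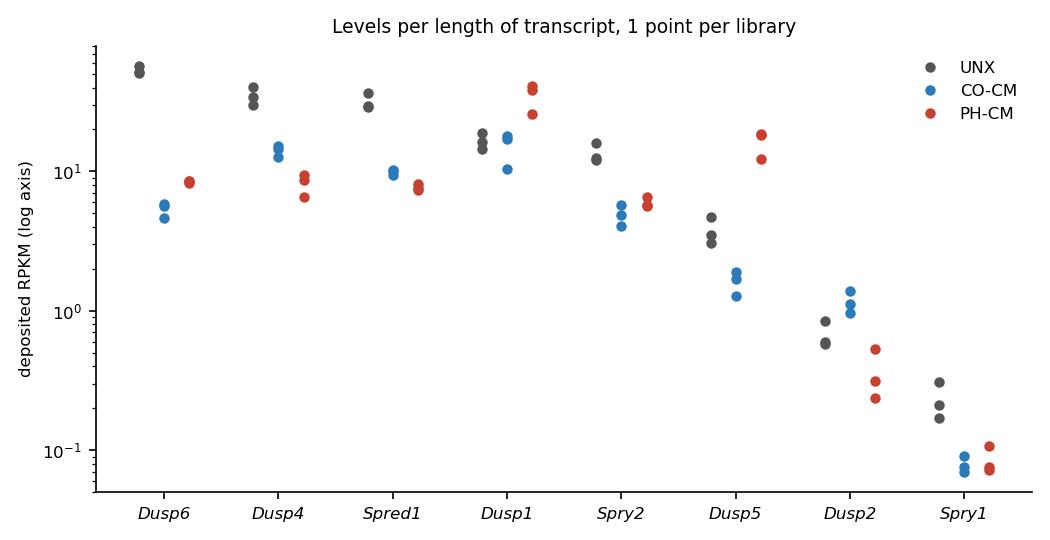
Deposited RPKM of the 8 genes on a log axis, 1 point per library, coloured by group. Dusp6 leads in UNX at a mean of 53.1 RPKM and Dusp1 leads in PH-CM at a mean of 35.2 RPKM, and Spry1 is lowest in every group.

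Dusp6 (ENSMUSG00000019960, GRCm38 chr10:99263231-99267489, plus strand), the cytoplasmic phosphatase specific for ERK, had 155, 176 and 155 CPM in UNX replicates 1, 2 and 3. In CO-CM it had 17.7, 15.0 and 18.9 CPM, and in PH-CM 26.5, 27.1 and 26.5 CPM. No group overlapped another, and CO-CM was the lowest. The log2 fold change was -3.23 (SE 0.086, edgeR FDR 6.02e-09) for CO-CM against UNX and -2.60 (SE 0.083, FDR 2.02e-09) for PH-CM against UNX. PH-CM was above CO-CM by 0.63 (SE 0.082, edgeR FDR 0.000200). Within replicate numbers PH-CM had 1.50, 1.81 and 1.40 times the CPM of CO-CM.

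Dusp4 (ENSMUSG00000031530, chr8:34807297-34819894, plus strand) encodes a nuclear phosphatase of ERK and other MAP kinases. It had 106, 80.8 and 91.8 CPM in UNX, 39.5, 35.8 and 42.7 CPM in CO-CM, and 25.5, 18.4 and 24.3 CPM in PH-CM. The groups formed 3 steps without overlap, with PH-CM as the lowest, where for Dusp6 it was CO-CM. On the log2 scale Dusp4 fell by 1.24 (SE 0.13, edgeR FDR 1.06e-05) under CO-CM and by 2.03 (SE 0.13, FDR 2.50e-07) under PH-CM. PH-CM was below CO-CM by -0.79 (SE 0.13, edgeR FDR 0.000908).

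Spred1 (ENSMUSG00000027351, chr2:117121374-117182279, plus strand) encodes a membrane-bound inhibitor of RAS to RAF signalling. It had 239, 191 and 195 CPM in UNX, 63.5, 71.3 and 71.5 CPM in CO-CM, and 55.3, 50.8 and 52.3 CPM in PH-CM. Again PH-CM was lowest and no group overlapped another. The log2 fold changes were -1.60 (SE 0.087, edgeR FDR 1.03e-07) for CO-CM against UNX, -1.98 (SE 0.088, FDR 1.60e-08) for PH-CM against UNX and -0.38 (SE 0.086, FDR 0.00561) for PH-CM against CO-CM. The step between the media was thus small beside the fall from UNX.

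Spry2 (ENSMUSG00000022114, chr14:105891947-105896819, minus strand), an inhibitor that itself binds signalling adaptors, had 32.0, 24.5 and 25.5 CPM in UNX, 12.0, 8.78 and 10.4 CPM in CO-CM, and 13.6, 12.2 and 12.1 CPM in PH-CM. Both media lowered it: the log2 fold change was -1.40 (SE 0.13, edgeR FDR 4.30e-06) under CO-CM and -1.11 (SE 0.13, FDR 1.62e-05) under PH-CM. The difference between the media was 0.28 (SE 0.13, edgeR FDR 0.109), which was not called, with a 95% interval of -0.00 to 0.57. PH-CM was the higher in 3 of 3 replicate numbers. With the replicate number as a block the same difference was 0.29 and was called (edgeR FDR 0.00488).

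Spry1 (ENSMUSG00000037211, chr3:37639947-37644598, plus strand), the other Sprouty gene of the 8, was at the edge of detection. It had 38, 66 and 42 reads in UNX, 18, 14 and 16 reads in CO-CM and 14, 14 and 20 reads in PH-CM, or 0.586, 0.875 and 0.489 CPM in UNX and 0.208 to 0.317 CPM in the conditioned groups. Every UNX library was above every conditioned library, and CO-CM and PH-CM overlapped. Without a filter the log2 fold change was -1.51 (edgeR FDR 0.000936) for CO-CM and -1.42 (FDR 0.00170) for PH-CM, and 0.10 (FDR 0.961, not called) between the media. Each read pair could be counted as 2 reads, so these numbers stand for fewer molecules.

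Dusp5 (ENSMUSG00000034765, chr19:53529109-53542431, plus strand), a nuclear phosphatase specific for ERK, changed most between the media. It had 7.28, 11.5 and 8.51 CPM in UNX, 3.13, 4.88 and 4.30 CPM in CO-CM, and 30.3, 46.8 and 46.0 CPM in PH-CM. No group overlapped another. The log2 fold change was -1.15 (SE 0.23, edgeR FDR 0.00108) for CO-CM against UNX, 2.17 (SE 0.21, FDR 5.57e-06) for PH-CM against UNX, and 3.32 (SE 0.23, FDR 2.93e-06) for PH-CM against CO-CM. Within replicate numbers PH-CM had 9.67, 9.60 and 10.7 times the CPM of CO-CM. An annotated antisense gene on the opposite strand shares part of its exons, and the counting is not stated to use strand.

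Dusp1 (ENSMUSG00000024190, chr17:26505590-26562128, minus strand), the phosphatase of ERK, JNK and p38, had 37.1, 49.5 and 43.3 CPM in UNX. In CO-CM it had 28.1, 50.3 and 47.2 CPM, and in PH-CM 69.2, 114 and 106 CPM. UNX and CO-CM overlapped and PH-CM lay above both. The log2 fold change was 1.15 (SE 0.23, edgeR FDR 0.000916) for PH-CM against UNX and 1.2 (SE 0.23, FDR 0.00214) for PH-CM against CO-CM. For CO-CM against UNX it was -0.05 (SE 0.23, edgeR FDR 0.859, not called), with a 95% interval of -0.55 to 0.45. In each of the 3 groups replicate 1 was the lowest library of Dusp1, and of Dusp5. Within replicate numbers PH-CM had 1.87, 2.30 and 2.44 times the CPM of UNX and 2.47, 2.26 and 2.25 times that of CO-CM. Gene models on the opposite strand overlap the annotated Dusp1 gene, and the counting is not stated to use strand. Of the 3311 annotated exon bases of Dusp1, Gm8225 shares 0 and Ergic1 shares 11.

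Dusp2 (ENSMUSG00000027368, chr2:127336159-127338376, plus strand), a nuclear phosphatase of immune cells, was low in all groups. It had 1.11, 1.17 and 1.65 CPM in UNX, 1.93, 2.33 and 2.87 CPM in CO-CM, and 0.625, 0.483 and 1.08 CPM in PH-CM, from 30 to 204 reads per library. The groups did not overlap, although the UNX and PH-CM libraries nearest to each other, at 1.11 and 1.08 CPM, were close. The log2 fold change was 0.85 (SE 0.27, edgeR FDR 0.0165) for CO-CM against UNX and -0.85 (SE 0.30, FDR 0.0236) for PH-CM against UNX. These 2 calls rest on single libraries: the second had an FDR of 0.0970 with UNX replicate 3 left out, 0.0766 with PH-CM replicate 1 left out and 0.0903 with PH-CM replicate 2 left out. The first had an FDR of 0.0548 and 0.0572 with UNX replicate 1 or 2 left out, and 0.0662 with CO-CM replicate 3 left out. The difference between the media was larger, at -1.71 (SE 0.29, edgeR FDR 0.00113), and stayed called without each library.

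**Figure D3:**
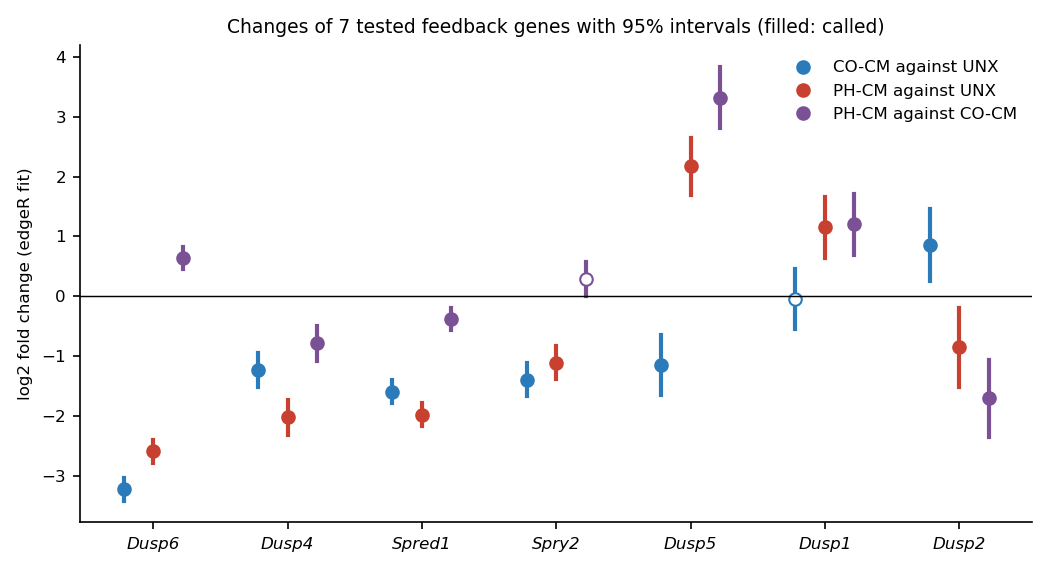
Log2 fold change from the edgeR fit with its 95% interval for the 7 genes that passed the filter, in the 3 comparisons, filled where called. Dusp6, Dusp4, Spred1 and Spry2 lie below 0 against UNX under both media, and Dusp5 spans the widest range, from -1.15 under CO-CM to 3.32 for PH-CM against CO-CM.

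Counted over the tested genes, PH-CM against UNX called 7 of 7, with 2 higher and 5 lower, where 63.0% of all tested genes were called, 31.3% higher and 31.7% lower. A fold change of 2 or more was called for 6 of the 7, beside 18.0% of all genes, and the groups did not overlap for 7 of 7, beside 77.7%. CO-CM against UNX called 6 of 7, with 1 higher and 5 lower, beside 57.0% of all genes, 28.0% higher and 28.9% lower. There 5 of the 7 were called at a fold change of 2 or more, beside 13.8%, and the groups did not overlap for 6, beside 72.0%. PH-CM against CO-CM called 6 of 7, with 3 higher and 3 lower, beside 27.1% of all genes, 12.2% higher and 15.0% lower. Of these, 3 reached a fold change of 2, beside 5.12%, and the groups did not overlap for 7 of 7, beside 50.2%. The median size of the log2 change over the 7 genes was 1.98, 1.24 and 0.79 in the 3 comparisons in this order, where over all tested genes it was 0.43, 0.36 and 0.17. Against UNX most tested genes of the genome were called, so a call there is common.

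**Figure D4:**
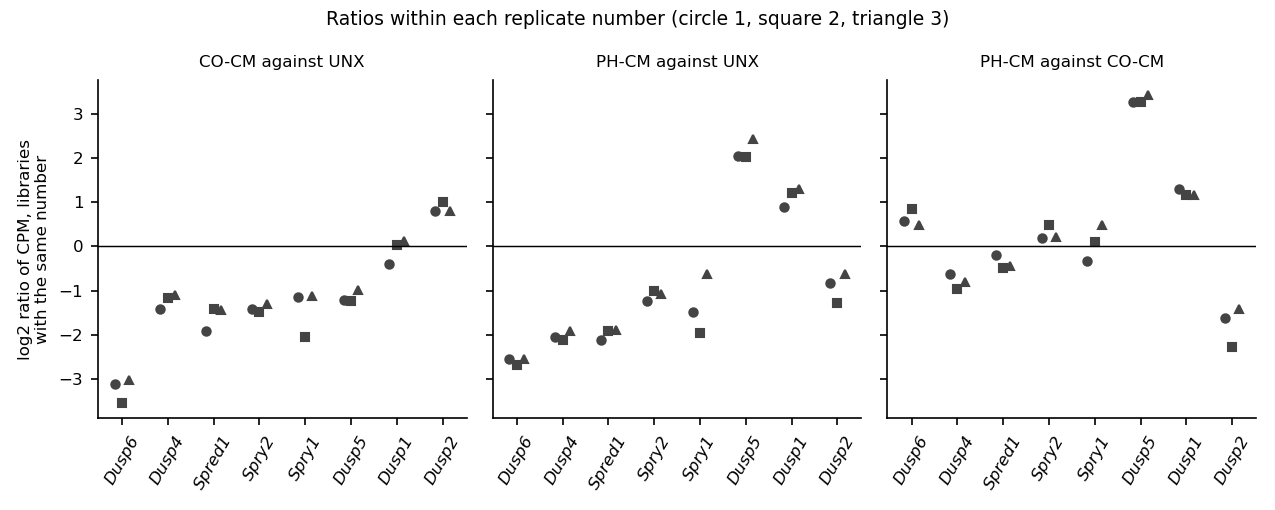
Log2 ratio of CPM between the libraries with the same replicate number, for all 8 genes and the 3 comparisons. Dusp1 is the gene whose CO-CM ratios fall on both sides of 0, and Spry1 does so for PH-CM against CO-CM.

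The rest of the feedback machinery was mixed. Among 6 other MAP kinase phosphatase genes, all tested, PH-CM against UNX called 0 higher and 2 lower, CO-CM against UNX 1 higher and 2 lower, and PH-CM against CO-CM 1 higher and 1 lower. Dusp7, for another cytoplasmic phosphatase of ERK, fell under both media, with log2 fold changes of -0.90 (CO-CM) and -1.11 (PH-CM). Dusp16, for a phosphatase of JNK and p38, fell by 0.79 and 0.44 in the same order. Dusp9 rose under CO-CM alone, by 0.98, and was lower in PH-CM than in CO-CM, at -1.25. Of the 4 other Sprouty and Spred genes, Spry4 was below the filter and 3 were tested. Spred2, a close relative of Spred1, fell by 2.47 under CO-CM and by 2.25 under PH-CM, from 80.3 ± 3.49 CPM in UNX (n = 3). Spry3 rose under both media, by 0.92 and 2.06, from 0.865 ± 0.0341 CPM. Spred3 was called under PH-CM, at 0.60 against UNX and 0.82 against CO-CM, and was at -0.22 for CO-CM against UNX (not called). The shares of all genes called, given above, are the background for these counts too.

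The genes that ERK switches on beside its inhibitors were often lower under both media. Of 15 such genes Epha4 and Etv4 were below the filter and 13 were tested. PH-CM against UNX called 2 higher and 8 lower, CO-CM against UNX 0 higher and 10 lower, and PH-CM against CO-CM 5 higher and 5 lower. These are 76.9% of the list in each comparison, beside 63.0%, 57.0% and 27.1% of all tested genes. Of the 13, 7 were called lower under both media, beside 24.2% of all tested genes. This list, like the 8 genes, was chosen with earlier results of these data known, so its shares are given as a description. Ccnd1, for the cyclin that drives entry into the cell cycle, had 500 ± 129 CPM in UNX (n = 3) and fell to 28.8 ± 7.57 in CO-CM and 9.39 ± 1.62 in PH-CM, by 4.11 and 5.73 on the log2 scale. Etv5, an ETS factor gene, fell by 2.99 and 4.14, and Myc by 2.91 and 3.46, lowest in PH-CM as Dusp4 and Spred1 were. Etv1, another ETS factor gene, fell by 2.35 and 1.80 and was higher in PH-CM than in CO-CM by 0.55, the order Dusp6 had. Egr3, an immediate early gene, fell by 1.23 and 3.38, from a low level. It had 2.09 ± 0.713 CPM in UNX, 0.883 ± 0.173 in CO-CM and 0.200 ± 0.164 in PH-CM (n = 3 each). Its PH-CM libraries held 4, 10 and 24 reads, so the size of that fall is uncertain.

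Fos and Ier3 were highest in PH-CM, as Dusp1 and Dusp5 were. Fos, the AP-1 subunit, had 44.7 ± 12.8 CPM in UNX, 51.4 ± 16.3 in CO-CM and 172 ± 34.8 in PH-CM (n = 3 each), a log2 fold change of 1.94 for PH-CM against UNX and 1.74 for PH-CM against CO-CM. For CO-CM against UNX it was 0.20 (not called). Ier3, an immediate early gene tied to cell survival, had 15.4 ± 1.23, 12.7 ± 2.08 and 68.0 ± 5.23 CPM in the same order. It rose under PH-CM, by 2.14. Its fall under CO-CM, by 0.28 (edgeR FDR 0.0480, 95% interval -0.54 to -0.03), only just passed both thresholds. Phlda1 fell under both media, by 1.97 and 0.50, and was higher in PH-CM than in CO-CM by 1.48. Egr2, for an early growth response factor, had its highest mean in CO-CM and its lowest in PH-CM, as Dusp2 did. It was 0.75 for CO-CM against UNX (not called), fell by 2.20 under PH-CM, and was at -2.95 for PH-CM against CO-CM.

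**Figure D5:**
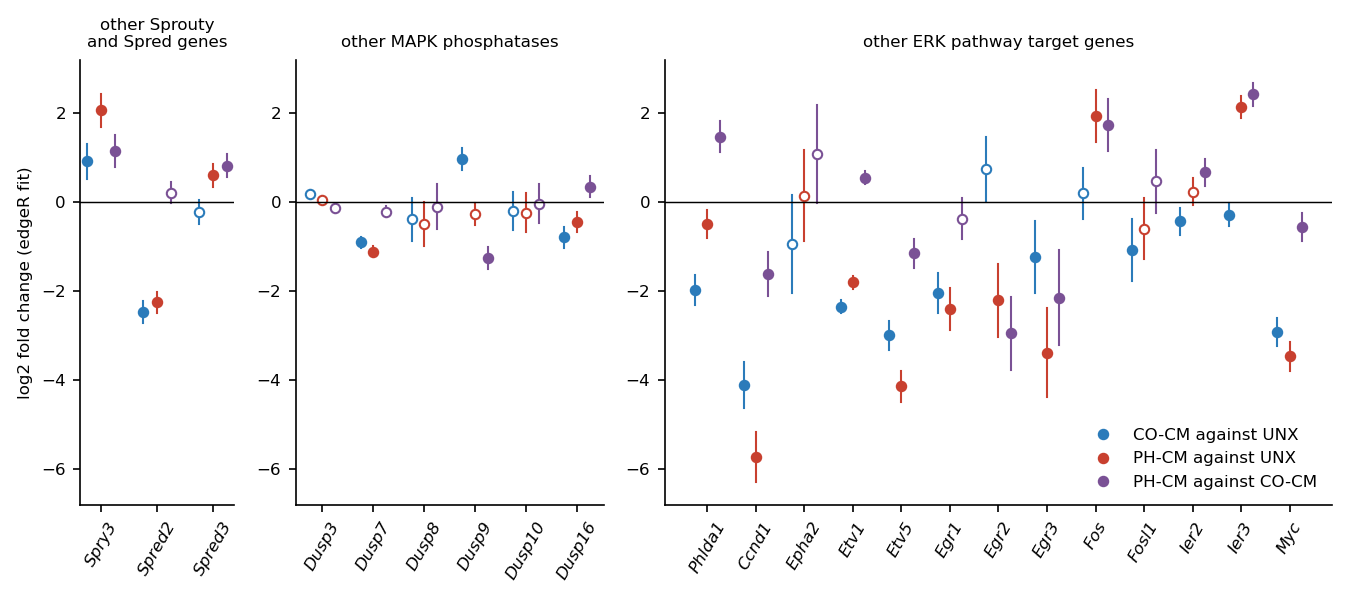
Log2 fold change from the edgeR fit with its 95% interval for other Sprouty and Spred genes, other MAP kinase phosphatases and other ERK target genes, in the 3 comparisons, filled where called. Ccnd1, Etv5 and Myc lie far below 0 against UNX under both media, while Fos and Ier3 lie near 0 under CO-CM and at 1.94 and 2.14 under PH-CM.

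The transcripts of the cascade itself had smaller changes in the median than the 7 feedback genes. Of 24 genes from CSF1 to ERK, Il34 was below the filter and 23 were tested, with 11 called higher and 4 lower for PH-CM against UNX, 9 and 4 for CO-CM against UNX, and 6 and 0 for PH-CM against CO-CM. The called shares, 65.2%, 56.5% and 26.1%, were near those of all tested genes, 63.0%, 57.0% and 27.1%. The median size of their log2 change was 0.32, 0.32 and 0.20, beside 0.43, 0.36 and 0.17 over all tested genes. Gab1, for an adaptor that links receptors to RAS, was the exception, from 6.42 ± 0.891 CPM in UNX to 28.2 ± 4.20 in CO-CM and 75.1 ± 3.61 in PH-CM (n = 3 each), log2 fold changes of 2.14 and 3.55. Csf1r had 1615 ± 116, 2090 ± 205 and 2779 ± 218 CPM, higher by 0.37 and 0.78 than in UNX. Csf1, the ligand, had 16.6 ± 3.72, 18.6 ± 3.44 and 32.4 ± 9.26 CPM, and was called under PH-CM against UNX, at 0.96, and against CO-CM, at 0.80. Hras, for a RAS protein, fell by 0.78 and 0.88 under CO-CM and PH-CM. Mapk3, which encodes ERK1, rose by 0.68 and 0.55.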

How the data were processed

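RNA-Seq counts of 9 mouse BMDM libraries were used, 3 each for UNX, CO-CM and PH-CM, grouped and numbered from their titles. Per the methods, the authors ran FastQC and AfterQC on the reads, STAR for alignment on GRCm38 and featureCounts 1.6.2 over exons. The deposited counts are raw whole numbers, not scaled in any way. Even values dominate among small counts, as they would if both mates of a pair were counted. The deposited RPKM values are these counts scaled by the authors to exon length and library total, and serve only to compare levels between genes. The authors' own comparison tables (fold changes and p-values) were not used. Members and lists were chosen with earlier results of these data known. They are all 8 genes, up to 4 called genes with the largest change in each direction per pathway list, and the 3 genes of nearest pattern to each member. Some genes of the pathway lists are counted in their list and not reported here by name.

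Libraries held 62017933 to 84314201 counts, which limits counting error for all but Dusp2 and Spry1. Replicates of a group differed by more than sampling noise. Counts were scaled by TMM and fitted over all 9 libraries with edgeR 4.0.16 (quasi-likelihood test, R 4.3.3, limma 3.58.1), on 11950 genes above 1 CPM in at least 3 libraries, with Benjamini-Hochberg adjustment over all of them (FDR of at most 0.05, fold change of at least 1.2). The 95% intervals use the fit's degrees of freedom. The fit was tested on simulated data. The study repeated the experiment 3 times, and nothing in the labels says what a number marks. Deviations from the group means correlated at 0.276 to 0.484 between libraries with the same number and at -0.376 to 0.0423 between others, which was taken as pairing by number, and a fit with the number as a block was run. Other alternatives were the exact test of edgeR, DESeq2 1.42.0, other scalings, filters, length offsets, counts divided by 2, only the 2 groups compared, other fold thresholds and each library left out. P-values measure the spread between these macrophage cultures. Gene positions come from GENCODE M21 and promoters from RefSeq, both on GRCm38.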

Additional observations from a re-analysis of the deposited data

How the results depend on the processing

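Of the log2 fold changes of the 7 tested genes under the alternatives, 421 kept direction and call, 12 lost the call, 4 gained it and 4 changed sign. All 4 sign changes were in Dusp1 for CO-CM against UNX, never called: 0.0165 with upper-quartile factors, 0.0613 without the 3 libraries numbered 1 (chosen after seeing the data), and -0.20 to 0.17 with 1 library left out, including 0.04 without UNX replicate 2 and 0.17 without CO-CM replicate 1. A fold threshold of 2 left 2153, 1655 and 612 of 7534, 6806 and 3244 genes called for PH-CM against UNX, CO-CM against UNX and PH-CM against CO-CM, and 3 of the 7 genes in the last, by construction. Without the 3 libraries numbered 1, Dusp2 for PH-CM against UNX was at -0.86 (edgeR FDR 0.0524), and Spry2 for PH-CM against CO-CM at 0.35 (FDR 0.0172). Spry2 was also called without CO-CM replicate 1, at 0.40 (edgeR FDR 0.0353). The cause of these shifts was not tested. The replicate block changed no other call than that of Spry2, at 0.29 (edgeR FDR 0.00488), and with length offsets it gave 0.32 (FDR 0.00287). Depth limits Spry1 and Dusp2, and 3 libraries a group limit the rest.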

Other observations

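Dusp1 and several other phosphatases also act on JNK and p38, so 11 genes of those kinases were read beside them. Mapk10 and Mapk13 were below the filter. Of the 9 tested, PH-CM against UNX called 1 higher and 3 lower, CO-CM against UNX 0 higher and 3 lower, and PH-CM against CO-CM 2 higher and 1 lower. The called shares were 44.4%, 33.3% and 33.3%, beside 63.0%, 57.0% and 27.1% of all tested genes. Mapk14, which encodes p38 alpha, was higher in PH-CM than in UNX by 0.36 and than in CO-CM by 0.29 on the log2 scale. Mapk11, for p38 beta, fell by 1.11 under CO-CM and by 0.86 under PH-CM. Map2k6, for a kinase that activates p38, fell by 0.41 and 1.14 in the same order. Mapk8, for JNK1, fell under CO-CM by 0.66 and was higher in PH-CM than in CO-CM by 0.41.

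Over the 9 libraries, the genes whose log2 CPM followed each feedback gene most closely were found by Pearson's r. The 9 libraries fall into 3 groups, so r mostly describes the order of the group means, and it is given as a description. For Dusp6 they were Pdia4 (r = 0.999), the ERK target gene Etv1 (0.998) and Snx2 (0.997). For Dusp4 they were Slc24a3 (0.998), Mettl1 (0.996) and Ccdc107 (0.995). For Spred1 they were Anp32b (0.999), Aida (0.998) and Wdr76 (0.998), and for Spry2 Myo19 (0.996), Armc1 (0.995) and Bysl (0.995). Dusp5 was followed by Impdh1 (0.993), the chemokine gene Ccl6 (0.993) and Epn1 (0.993), and Dusp1 by Pstpip1 (0.986), Srgn (0.977) and Tor1a (0.976). Dusp2 had the loosest neighbours, Ldoc1l (0.967), Zdhhc12 (0.960) and Ppp2r1a (0.958).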
